A study of Homo sapiens with 12 samples.

Results

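The early response to the compound that the labels call Aa was taken from 6 arrays, 3 of HK-2 cells exposed to a high dose of Aa for 24 h and 3 of HK-2 cells exposed to its vehicle for the same time. These 6 are part of a set of 12 arrays, and the other 6 hold the same pair of groups at 48 h. The response is described across all 11184 genes, of 19777 on the array, with a signal above log2 4 on 3 or more of the 12 arrays; 1 probe set stood for each gene, and these genes were chosen by level and not by their change. HK-2 is an immortalised line of human renal proximal tubular epithelial cells, so all groups share 1 cell line, and all were kept in a medium with epidermal growth factor, hydrocortisone, insulin and transferrin. Cells were nearly confluent when exposure began. Levels are given as log2 GCRMA signals of an Affymetrix array, a background-corrected scale on which a step of 1 is 2-fold, and changes as Aa minus vehicle. Controls received the vehicle alone, which the labels do not name, and they state neither what Aa is nor how much of it was used. The labels call the 3 samples of each group biological replicates and number them, and the study looked for expression signatures of kidney toxicity.

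The proximal tubule reclaims solutes from the filtered urine, and its cells take up many drugs and toxins on the way. Exposed cells commonly change several programmes at once: growth arrest genes such as CDKN1A and the GADD45 genes slow the cell cycle, NRF2 and its partners raise enzymes that handle oxidants, and NF-kB and interferon genes signal damage to other cells. The amount of a transcript at any time is set by how fast it is made and how fast it decays. Making it requires RNA polymerase II to travel the whole gene, introns included, so genes differ widely in the length that has to be transcribed.

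Arrays within a group correlated at 0.995 to 0.996 with Aa and at 0.995 to 0.997 with vehicle over all probe sets, and arrays of different groups at 0.970 to 0.976. No array stood apart from its group. The difference between 3' and 5' probe sets, a measure of RNA integrity, was 0.62 to 1.24 (log2) for ACTB with Aa and 0.68 to 0.86 with vehicle, and -0.15 to -0.09 and -0.19 to -0.11 for GAPDH. The 5 epithelial markers were over log2 4 on all 6 arrays, but of 13 proximal tubule markers only SLC3A1 and SLC4A4 were, and the other 11, with the megalin gene LRP2, the cubilin gene CUBN and the transporter genes SLC34A1, SLC22A6 and SLC22A8, lay under log2 4 on all 6. The 4 leukocyte markers also lay under log2 4 on all 6, as did 4 of 5 endothelial and 5 of 6 distal and podocyte markers; the others, TEK and SLC12A1, lay between log2 3.87 and 4.40. The fibroblast markers COL1A1, DCN and LUM were over log2 4 in both groups. The summed linear level of the 5 epithelial markers was 29400 to 33200 with vehicle and 21280 to 24670 with Aa, and that of the 6 fibroblast markers was 4914 to 6963 and 3686 to 5223; their part in the results was not tested. In cultures measured in bulk, fewer cells of a kind and less RNA per cell cannot be told apart.

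Transcripts of most measured genes differed between Aa and vehicle at 24 h. In all, 6883 of 11184 genes (61.5%) passed the test, which means an adjusted p under 0.05 in limma, a linear model per gene that borrows information on spread from all genes, with the replicate number as a block. Of these, 3633 were higher with Aa (32.5% of the genes tested) and 3250 lower (29.1%). The counts of each gene list below are to be read beside these 2 shares, and a list near them does not stand out. A change of at least 2-fold was found for 1222 genes upward (10.9%) and 1115 downward (9.97%), of at least 4-fold for 366 and 325, and of at least 8-fold for 145 and 136. The values of the groups did not overlap for 6687 genes (59.8%). For all 2337 genes changed at least 2-fold (20.9%) the 3 pairs of same-numbered samples moved the same way. That is largely set by their choice through the paired test and the size of the change, so it is no separate support. The median change over all genes tested was 0.02 (log2), with quartiles of -0.39 and 0.46. Scaling the arrays to the manufacturer's hybridisation controls, RNAs added in fixed amounts, lowered all changes by 0.28 (log2) and gave 1980 genes higher and 4751 lower, so 29.4% of the calls were upward in place of 52.8%. The control values had already been normalised by GCRMA with all others. This scaling is therefore an alternative that shows how far counts depend on scaling, and not a measure of RNA per cell. Without the replicate block 5492 genes passed, 2942 upward and 2550 downward.

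Genes that are long in the genome fell. The span of a gene is the distance from its first to its last base in NCBI's RefSeq annotation (GRCh38.p14), introns included. Of 348 tested genes with a span over 300 kb, 292 fell (83.9%), 7 rose, and 255 (73.3%) fell at least 2-fold, against 9.97% of all genes tested. Their median change was -2.02 (log2; quartiles -3.10 and -0.92), and the 3 pairs of samples gave medians of -2.18, -2.02 and -1.85. Among 1614 genes of 100 to 300 kb, 902 fell (55.9%) and 250 rose (15.5%), with a median of -0.45. Among 3295 genes of 10 to 30 kb the balance was the other way, with 1347 up (40.9%), 637 down (19.3%) and a median of 0.16, which became -0.12 with hybridisation-control scaling. For 2332 genes under 10 kb the median was 0.05, or -0.24 with that scaling, and 736 rose and 570 fell. Genes that rose at least 2-fold had a median span of 23.5 kb and genes that fell at least 2-fold one of 134.6 kb, against 29.7 kb for all genes tested.

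**Figure D1:**
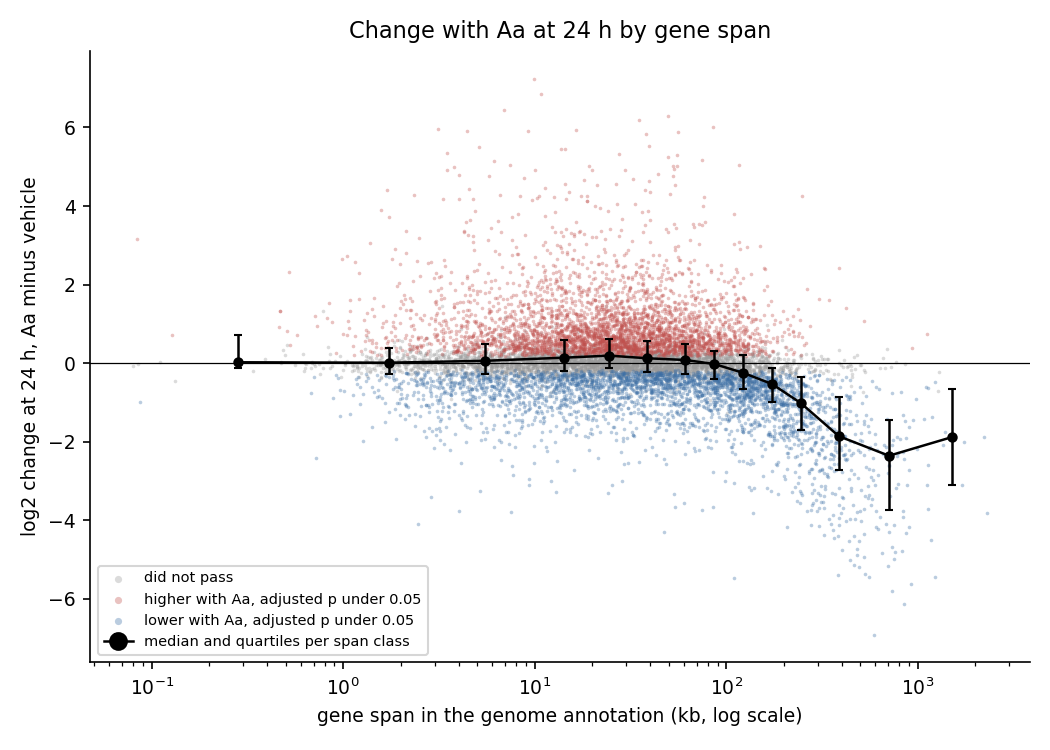
Each point is 1 of 11176 genes with a known span, plotted by gene span (kb, log scale) and log2 change at 24 h (Aa minus vehicle); black points and bars are the median and quartiles of each span class. The medians lie near 0 up to about 100 kb and drop to -1.02 for genes of 200 to 300 kb and -2.36 for genes of 500 to 1000 kb, with -1.88 for the 19 genes over 1000 kb.

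The fall of long genes was seen at each level of expression. With the genes split into 3 equal classes by their level in control cells, the median change of genes over 300 kb was -2.07 in the lowest class, -2.24 in the middle one and -1.45 in the highest. The rises of genes of 10 to 30 kb differed by level. In the lowest class 46.1% rose and 11.5% fell (median 0.34), and in the middle one 46.2% and 21.0% (0.23). In the highest class 30.1% rose and 26.2% fell (0.03), with 18 up and 39 down at least 2-fold. The control level is also 1 side of the change, and genes low in control cells can enter the test through other arrays, so these shares are a description. In finer classes, chosen after the data were seen, the share that fell was 29.9% for 75 to 100 kb, 44.4% for 100 to 150 kb, 63.0% for 150 to 200 kb, 75.6% for 200 to 300 kb, 82.3% for 300 to 500 kb, 87.4% for 500 to 1000 kb and 84.2% for the 19 genes over 1000 kb. Over 11176 genes the rank correlation of span and change was -0.25; this is across genes, which are not independent replicates.

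The largest falls among well measured genes, over log2 6 on all 6 arrays, were all of long genes, with spans of 288 to 768 kb. LRBA, which encodes a protein of vesicle trafficking, read log2 10.53, 10.77 and 10.34 in control samples 1, 2 and 3 and 6.06, 6.72 and 6.47 in the Aa samples, a 17.5-fold fall (log2 change -4.13, SE 0.44, adjusted p = 5.47e-05). UTRN, the utrophin gene, read 10.06, 10.20 and 9.53 with vehicle and 6.24, 6.73 and 6.02 with Aa, 12.2-fold lower (adjusted p = 1.93e-05). The groups stood far apart for both genes, and the spread within a group was under 0.8. KCNMA1, a potassium channel gene, read 9.60, 9.61 and 9.43 and then 6.22, 6.10 and 6.76 (9.08-fold, adjusted p = 0.00273). The receptor phosphatase gene PTPRK, one of the brightest of these genes, read 11.68, 11.86 and 11.34 and 8.40, 8.97 and 8.15 (8.66-fold). EXT1, which encodes a heparan sulfate polymerase, read 12.11, 12.001 and 11.81 and 9.11, 9.34 and 9.31 (6.57-fold, adjusted p = 8.1e-06). The other 5 were the matrix gene FRAS1, the protease gene ADAMTS3, the SNARE gene STX8, the RNA-binding protein gene MSI2 and MCTP1, with falls of 6.53-fold to 7.57-fold. That the groups do not overlap was part of how these 10 were chosen.

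**Figure D2:**
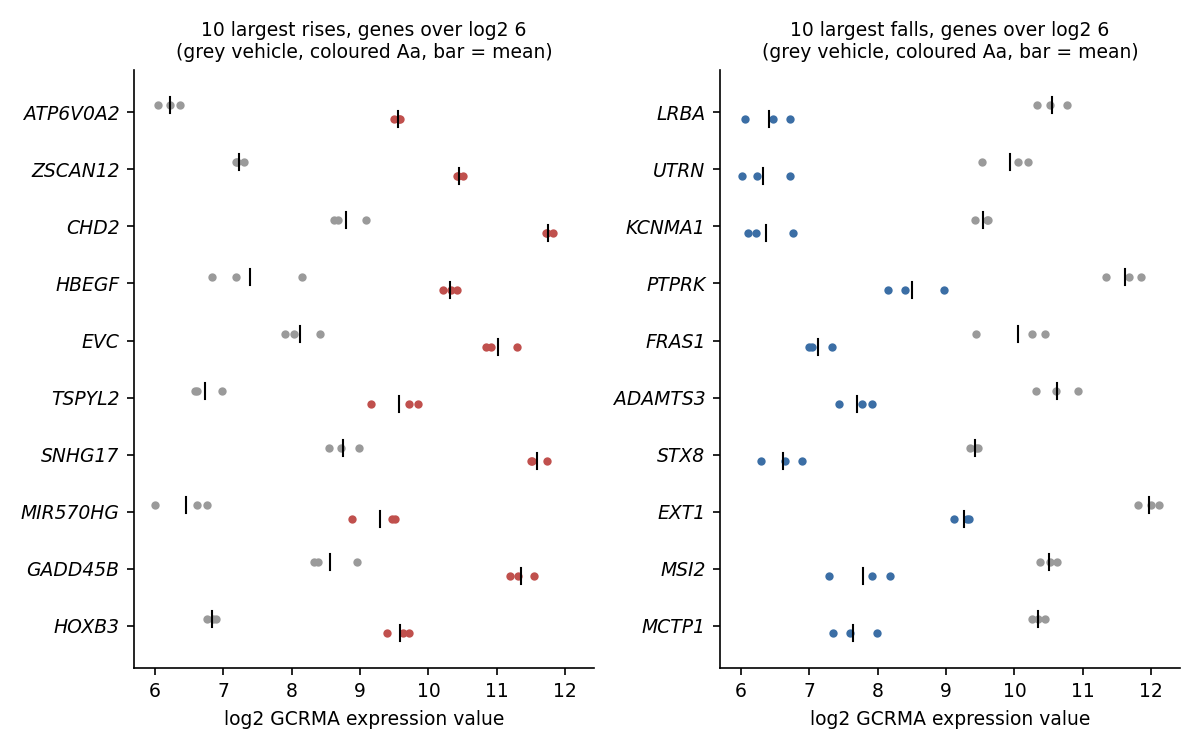
Deposited log2 GCRMA values of each of the 6 arrays at 24 h for the 10 largest rises and the 10 largest falls among genes over log2 6 on all 6 arrays; grey points are vehicle samples, coloured points Aa samples and bars group means. LRBA fell from over log2 10 in all vehicle samples to under 7 in all Aa samples; groups that do not overlap were part of the choice of these 20 genes.

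Some long genes went from a clear signal to near background. Values under log2 4 are close to the background of these arrays, so the fold is given as a lower bound with such values set at log2 4. SYT1, the synaptotagmin gene, read log2 9.68, 9.61 and 8.96 with vehicle and 2.98, 2.34 and 2.21 with Aa, at least 42.8-fold lower. EXOC4, of the exocyst that tethers vesicles, read 9.23, 8.93 and 9.02 and 2.87, 2.83 and 3.07 (at least 33.4-fold lower), and the ataxin gene ATXN1 8.65, 8.88 and 8.26 and 3.49, 3.67 and 3.24 (at least 24.2-fold lower). The receptor phosphatase gene PTPRG and the gephyrin gene GPHN fell at least 29.7 and at least 21.5-fold. In all, 153 genes lay over log2 4 with vehicle and under it with Aa, and 125 of these had a span over 100 kb. Their control arrays alone sufficed for these genes to enter the test, so this count is a description and no further support. The longest genes that fell were PTPRD (2299 kb, at least 4.75-fold), the dystrophin gene DMD (2220.2 kb, at least 1.26-fold) and the axon guidance receptor gene ROBO2 (1743 kb, at least 1.18-fold), all of low level in control cells.

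In the gene families of this paragraph, which hold long members, falls outnumbered rises. Not every list with long members went that way. Of the translesion synthesis genes over 100 kb, 3 of 4 rose and 0 fell. Homologous recombination, Fanconi and checkpoint genes over 100 kb rose in 3 and fell in 3 of 8 cases. For histone-modifying enzyme genes over 100 kb the counts were 7 and 7 of 19. Of 10 tested receptor tyrosine phosphatase genes (median span 227 kb) 8 fell and 1 rose, with a median of -1.57 (log2). Of 15 phosphodiesterase and protein kinase C genes 10 fell, among them PRKCB (at least 13.6-fold; log2 7.98, 7.79 and 7.52 to 2.42, 2.39 and 2.28) and PDE10A (4.95-fold). Of 30 genes of intraflagellar transport and the BBSome, which build and load the primary cilium, 15 fell and 4 rose; BBS9 (506 kb) fell at least 5.12-fold, while BBS7 (46.1 kb) rose 3.00-fold. Of 29 kinesin genes 15 fell, with KIF16B and KIF26B at least 9.60 and at least 5.03-fold lower. Sorting nexin and VPS genes, which sort endosomal cargo, fell in 22 and rose in 11 of 58 cases, against 29.1% and 32.5% of all genes. With hybridisation-control scaling 31 fell and 5 rose. VPS13B (864 kb) fell at least 10.7-fold and VPS11 (14.2 kb) rose 3.42-fold.

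Long genes of several other families fell as well. The autophagy genes ATG7 (304 kb), ATG10 (284 kb) and UVRAG (329 kb) fell 6.73, at least 10.05 and 5.19-fold, and all 7 of 7 lysosome and autophagy genes over 100 kb fell, while over the whole list 14 rose and 14 fell of 43, or 8 and 14 with hybridisation-control scaling. ZNF407 (468 kb) fell at least 8.65-fold among zinc finger genes that more often rose, and DDX10 (276 kb) fell at least 11.96-fold among RNA helicase genes that more often rose. KLF12 (620.0 kb) fell at least 7.26-fold, while KLF6 and KLF10 (both under 10 kb) rose 2.22 and 1.84-fold. The mitochondrial tRNA synthetase gene FARS2 (522 kb) fell 2.94-fold and AARS2 (14.6 kb) rose 1.79-fold, in a list of 15 of which 7 fell and 3 rose. RAD51B (863 kb) fell at least 1.33-fold, the polarity gene PARD3 (706 kb) 6.08-fold and PPARGC1A (681 kb), a coactivator of mitochondrial genes, 4.37-fold.

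Genes with a long annotated span did not all fall, and some short genes did. The span is that of the whole annotated gene, and the length of the transcript form that a probe set reads was not tested. The nucleoporin gene RANBP2 (annotated span 1123 kb) rose 1.67-fold (log2 10.32, 10.61 and 10.67 to 11.31, 11.39 and 11.12) and the tumour suppressor gene DLC1 (521 kb) rose 2.09-fold (log2 9.44, 9.44 and 9.87 to 10.47, 10.57 and 10.90). PCDH9 was also among the longest genes that passed upward, but it read under log2 4 on all 6 arrays and its change has no size. Among short genes, the glycogen synthase gene GYS1 (25.2 kb) read log2 8.74, 8.14 and 8.62 with vehicle and 5.55, 5.11 and 5.52 with Aa, 8.63-fold lower (adjusted p = 4.07e-06). The tight junction gene CLDN2 (30.7 kb) read 11.39, 11.26 and 10.92 and 9.04, 8.81 and 8.08 (5.84-fold lower), and the interferon-stimulated gene IFI35 (7.67 kb) 7.93, 8.08 and 8.07 and 5.38, 4.63 and 5.50 (7.24-fold lower). For these 3 genes the lowest control sample lay above the highest Aa sample by over 1 on the log2 scale.

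The largest rises among well measured genes were mostly of short and middle-sized genes, with a median span of 22.2 kb; 2 of the 10 were over 100 kb, the longer of them 127.7 kb. ATP6V0A2, which encodes a subunit of the vacuolar proton pump, read log2 6.23, 6.05 and 6.37 in control samples and 9.58, 9.58 and 9.49 in Aa samples, 10.1-fold higher (adjusted p = 1.14e-06), although 1 of its 3 tested probe sets had the other sign. The zinc finger gene ZSCAN12 read 7.18, 7.20 and 7.30 and 10.50, 10.43 and 10.42 (9.34-fold). HBEGF, a ligand of the EGF receptor, read 6.83, 7.18 and 8.16 and 10.41, 10.21 and 10.33 (7.59-fold, adjusted p = 4.57e-05); the highest control sample lay well below the lowest Aa sample. GADD45B, a growth arrest gene, read 8.38, 8.33 and 8.95 and 11.31, 11.20 and 11.54 (6.93-fold). The chromatin remodeller gene CHD2 rose 7.79-fold with 1 of 3 probe sets of the other sign, and the cilium gene EVC, TSPYL2, the RNA genes SNHG17 and MIR570HG and the homeobox gene HOXB3 rose 6.69-fold to 7.45-fold. All 10 rises kept their direction under each scaling tried.

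A set of 209 genes near background in control cells reached a signal with Aa. Of these, 10 had a span over 100 kb, and the median span was 16.4 kb, against 29.7 kb for all genes tested. Among all 11184 genes tested, 1614 had a span of 100 to 300 kb and 348 a longer one. Genes of this set entered the test only through arrays other than these controls, so their spans are a description and no further support. CEL, a lipase gene of the pancreas, read log2 1.81, 1.74 and 1.75 with vehicle and 9.71, 8.18 and 9.15 with Aa (at least 32.3-fold higher), and LCT, the lactase gene of the gut, 2.37, 2.18 and 2.36 and 8.63, 8.55 and 8.57 (at least 24.00-fold). IL20RB, an interleukin receptor gene, read 3.65, 3.998 and 3.65 and 8.87, 8.64 and 8.61 (at least 26.1-fold). LSMEM1, AOC3 and CFAP251 rose at least 48.3, at least 38.1 and at least 23.2-fold. Other members of this set were PYGM, for the glycogen phosphorylase of muscle (at least 10.7-fold), the aldolase gene ALDOC (at least 15.3-fold), the dopamine transporter gene SLC6A3 (at least 11.7-fold), the mitochondrial carrier gene SLC25A34 (at least 13.9-fold), the integrin gene ITGA10 (at least 5.43-fold) and the kinesin gene KIF17 (at least 2.00-fold). Noncoding members were FAR2-AS1, SH3BP5-AS1, PYCARD-AS1 and LINC01963, each at least 6-fold higher, and the pseudogene ZNF137P rose at least 17.4-fold. Among 126 tested transcribed pseudogenes 57 rose and 12 fell, or 45.2% and 9.52%, against 32.5% and 29.1% of all genes; their probe sets can take signal from the gene they copy.

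Genes of zinc finger proteins and RNA helicases were more often higher than lower, and those of splicing were so except with hybridisation-control scaling. Of 347 tested genes named ZNF, which mostly encode DNA-binding repressors, 177 rose and 28 fell, with a median of 0.37 (log2) against 0.02 for all genes. With hybridisation-control scaling the counts were 112 and 67. The median span of these ZNF genes was 23.4 kb. Among all tested genes of 10 to 30 kb, 40.9% rose and 19.3% fell, with a median of 0.16. In the lowest class of control level 46.1% of that span rose and 11.5% fell, with a median of 0.34. The part of span and level in the ZNF counts was not tested. Of 48 DDX and DHX helicase genes 31 rose and 3 fell, or 15 and 7 with that scaling. DDX5 read log2 8.08, 7.93 and 7.89 with vehicle and 10.60, 10.39 and 10.20 with Aa, 5.38-fold higher, and DDX52 rose 5.78-fold. All Aa samples lay above all control samples for both helicases. Of 97 splicing factor genes 37 rose and 18 fell, which became 18 and 34 with hybridisation-control scaling; PRPF39 and PRPF38B rose 4.40 and 3.72-fold. POLR2A, the largest subunit of RNA polymerase II, rose 3.40-fold (log2 7.05, 7.14 and 7.17 to 9.31, 8.63 and 8.72), and CCNT1, a cyclin of the elongation factor P-TEFb, 2.88-fold. Over all 44 RNA polymerase II and elongation genes 18 rose and 12 fell, or 7 and 18 with that scaling.

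Small nucleolar RNA host genes, which carry guide RNAs for ribosomal RNA in their introns, rose in 6 of 8 cases and fell in 0; SNHG17 rose 7.12-fold, SNHG33 2.91-fold and SNHG32 2.11-fold. Of 36 genes of ribosome biogenesis and RNA polymerase I 18 rose and 8 fell, or 7 and 13 with hybridisation-control scaling; NOP2 rose 2.67-fold and EMG1 fell 3.88-fold. Cytosolic ribosomal protein genes gave 0 calls of 51 in limma, with the replicate block or without it, and at an unadjusted p under 0.05 3 were higher and 0 lower. Their changes lay between -0.11 and 0.16 (log2), with a median of 0.08 that became -0.20 with hybridisation-control scaling, under which 3 passed downward. Of 149 E3 ubiquitin ligase genes 69 rose and 30 fell, or 42 and 48 with that scaling, and of 78 histone-modifying enzyme genes 35 rose and 21 fell, or 19 and 26. TRIM13, TRIM56 and the methyltransferase gene SETD4 rose 6.67, 5.61 and 6.70-fold.

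**Figure D3:**
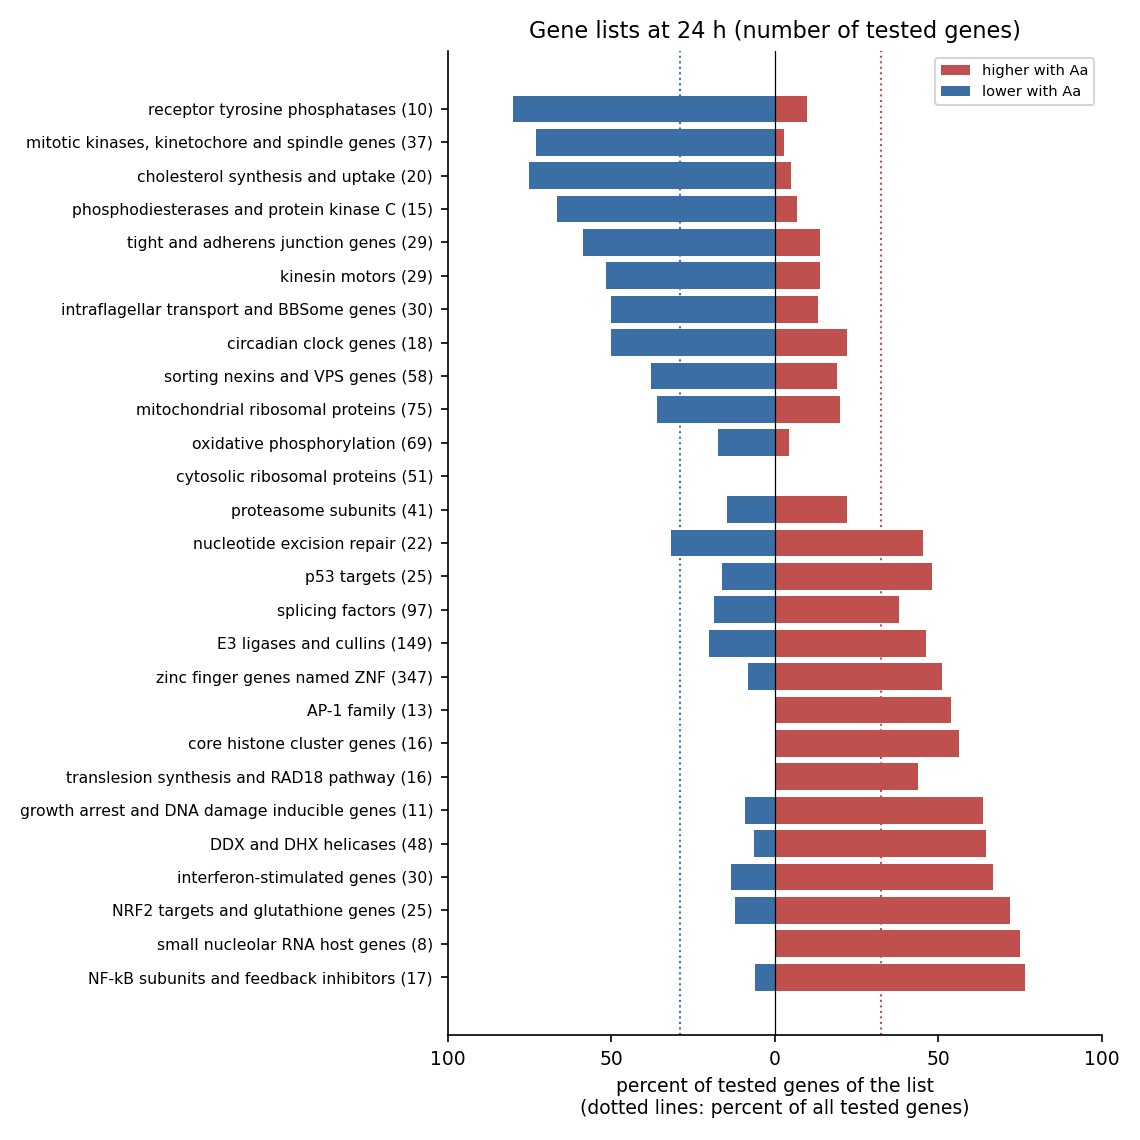
Percent of the tested genes of each gene list plotted that were higher (right, red) or lower (left, blue) with Aa at 24 h at an adjusted p under 0.05; dotted lines mark the same percentages over all 11184 genes, 32.5% and 29.1%. With hybridisation-control scaling more genes fell than rose in the lists of p53 targets, splicing factors, E3 ligases, proteasome subunits and nucleotide excision repair.

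Growth arrest genes rose, with 7 of 11 genes induced by arrest or DNA damage up and 1 down, DDIT4, a target of several stresses (log2 change -1.41). Of 7 genes for inhibitors of cyclin-dependent kinases 4 rose and 2 fell, CDKN1B and CDKN3. CDKN1A, which encodes the p21 inhibitor of cyclin-dependent kinases, read log2 9.47, 9.77 and 9.56 with vehicle and 11.41, 11.11 and 11.14 with Aa, 3.08-fold higher (SE 0.21 on the log2 scale, adjusted p = 0.000154). CDKN2B, which encodes p15, rose at least 12.1-fold, PPP1R15A (GADD34) 4.97-fold and SERTAD1 4.51-fold. The 3 Aa samples lay above the 3 controls in each of these. MDM2, the ubiquitin ligase that degrades p53 and a p53 target, read 8.81, 8.70 and 8.82 and 9.13, 9.14 and 8.72 and did not pass (log2 change 0.22, adjusted p = 0.121); the sign turned with hybridisation-control scaling. Among 25 p53 target genes 12 rose, 4 fell and 9 did not pass, and with hybridisation-control scaling 6 rose and 8 fell. PMAIP1, a pro-apoptotic BCL2 family gene, rose 3.36-fold and the phosphatase gene PPM1D 2.17-fold, while TP53I3 and ZMAT3 changed by -1.02 and -0.999 (log2). BAX and FAS, with changes of 0.04 and -0.17, did not pass.

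DNA repair genes changed in both directions. In translesion synthesis, in which special polymerases copy damaged DNA, 7 of 16 genes rose and 0 fell; with hybridisation-control scaling 4 rose and 2 fell. POLQ read log2 8.01, 8.14 and 8.22 with vehicle and 9.64, 9.72 and 9.91 with Aa (3.11-fold), with 1 of its 2 probe sets of the other sign, and RAD18 rose 2.81-fold with 2 of 4 probe sets of the other sign. In nucleotide excision repair 10 of 22 rose and 7 fell, or 5 and 9 with that scaling. The partners of 1 nuclease moved apart: ERCC4 rose 4.60-fold (log2 5.59, 5.95 and 5.23 to 8.03, 8.09 and 7.25) and ERCC1 fell 2.39-fold (log2 9.51, 9.15 and 9.35 to 8.19, 7.79 and 8.27), with 1 of 3 ERCC1 probe sets of the other sign. Of 31 homologous recombination, Fanconi and checkpoint genes 12 rose and 7 fell, against 32.5% and 29.1% of all genes. With hybridisation-control scaling 8 rose and 12 fell. EXO1 and RAD54B rose 2.50 and 2.41-fold.

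Genes of mitosis fell, while those of DNA replication changed in both directions. Of 37 mitotic kinase, kinetochore and spindle genes 27 fell, 1 rose (the separase gene ESPL1, log2 change 0.65) and 9 did not pass; the median was -0.54 and the median span 29.2 kb, close to that of all genes. The kinetochore gene SPC25 read log2 10.01, 9.99 and 10.35 with vehicle and 8.13, 8.29 and 8.23 with Aa, 3.73-fold lower (adjusted p = 5.05e-05). The spindle gene DLGAP5 read 11.74, 11.80 and 11.91 and 10.22, 10.21 and 10.05 (3.15-fold), and the kinetochore motor gene CENPE 9.49, 9.64 and 9.74 and 8.02, 8.18 and 8.13 (2.86-fold). The lowest control sample was over 1 above the highest Aa sample in all 3. AURKA, CDC20 and PLK1 changed by -1.34, -1.21 and -0.87 (log2), and BIRC5 and MAD2L1, with 0.03 and 0.07, did not pass. Of 44 replication genes 19 rose and 8 fell, or 8 and 15 with hybridisation-control scaling; ORC6, of the origin recognition complex, rose 2.25-fold and the primase partner gene POLA2 fell 2.66-fold. Of 28 cyclin, E2F and RB family genes 10 rose and 10 fell, against 32.5% and 29.1% of all genes. With that scaling 7 rose and 15 fell. E2F2 rose 2.86-fold, and CCND2 and TFDP2 fell 2.80 and 4.32-fold.

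Promoters of the mitotic genes are shown because many share 1 short motif. The windows run from 250 bases before to 50 bases after the annotated start (RefSeq, GRCh38.p14), and the cell cycle homology element, a site through which cell cycle genes are repressed outside of division, was searched as TTTGAA on both strands; its last bases can be shared with a heat shock element, which was searched too. It was found in 20 of the 30 mitotic genes with a window in the table (66.7%), against 15.4% of 27305 promoters and 9.50% of those of tested genes. Among the 21 with a window that fell it was in 14, again 66.7%, so its share did not separate those that fell from the rest of the list. The CCAAT box was in 76.7% of the 30, against 35.7% of all promoters. Below are DLGAP5 (chr14:55191536-55191835, minus strand) and SPC25 (chr2:168890381-168890680, minus strand), 5′ to 3′ in the direction of the gene, with the motif in capitals on either strand:
DLGAP5: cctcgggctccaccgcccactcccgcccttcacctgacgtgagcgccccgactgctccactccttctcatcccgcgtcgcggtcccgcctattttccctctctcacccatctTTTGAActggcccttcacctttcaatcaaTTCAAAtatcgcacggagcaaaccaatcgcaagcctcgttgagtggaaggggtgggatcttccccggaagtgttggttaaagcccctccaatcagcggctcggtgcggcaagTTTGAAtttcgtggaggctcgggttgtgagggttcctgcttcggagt
SPC25: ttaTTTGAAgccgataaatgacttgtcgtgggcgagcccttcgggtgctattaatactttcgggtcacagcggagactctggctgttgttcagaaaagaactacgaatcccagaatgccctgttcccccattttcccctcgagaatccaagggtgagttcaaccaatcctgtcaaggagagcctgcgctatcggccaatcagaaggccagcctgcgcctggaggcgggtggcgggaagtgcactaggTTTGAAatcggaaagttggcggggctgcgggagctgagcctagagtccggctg
DLGAP5 holds 3 matches and SPC25 2. A match is only these letters and was not tested for binding.

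Histone cluster genes, whose transcripts mostly lack a poly(A) tail, rose in 9 of 16 cases and fell in 0 (0 lower at an unadjusted p under 0.05), with a median of 0.87 (log2) and of 0.59 with hybridisation-control scaling. H2BC12 read 9.49, 9.44 and 9.62 with vehicle and 11.06, 11.0002 and 10.92 with Aa, 2.79-fold higher (adjusted p = 3.16e-05). H2AC6 read 4.15, 4.71 and 4.89 and 6.93, 7.28 and 6.53 (5.02-fold) and H2BC6 5.33, 5.68 and 5.59 and 6.92, 6.98 and 6.72 (2.53-fold). The groups were separate in all 3 genes. Histone copies are alike in sequence, so probe sets of 1 copy can take signal from others. The promoter of H2BC12 (chr6:27146809-27147108, minus strand) is shown with the TATA box, searched as TATAAA on both strands, in capitals; 12 of the 16 histone promoters held it (75%), against 11.95% of all promoters, and 6 of the 9 that rose.
H2BC12: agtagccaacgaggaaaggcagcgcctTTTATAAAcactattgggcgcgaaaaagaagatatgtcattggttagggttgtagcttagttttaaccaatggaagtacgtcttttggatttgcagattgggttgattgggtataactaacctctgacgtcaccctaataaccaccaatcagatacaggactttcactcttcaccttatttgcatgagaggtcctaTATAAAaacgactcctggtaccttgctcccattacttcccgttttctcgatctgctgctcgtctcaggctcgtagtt
It holds 3 matches, some of which overlap. The histone promoters had a median of 42.3% G and C against 58.3% over the table, and the part of base composition in the share was not tested.

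Several stress-induced transcription factors rose, ATF3 and JUN among them. ATF3, a factor induced by many stresses, read log2 4.71, 4.76 and 5.55 with vehicle and 10.48, 10.30 and 10.14 with Aa, 39.4-fold higher (adjusted p = 1.1e-06). JUN, a subunit of AP-1, read 8.96, 9.09 and 9.41 and 10.81, 10.69 and 10.91 (3.13-fold). In the AP-1 family 7 of 13 genes rose and 0 fell (0 lower at an unadjusted p under 0.05), or 4 and 0 with hybridisation-control scaling; FOS itself did not pass (log2 change 0.22). EGR1 went the other way, reading 11.62, 11.79 and 11.71 and then 10.01, 10.15 and 9.58 (3.46-fold lower, adjusted p = 0.000178), whereas IER5, IER2, NR4A1 and NR4A2 rose, the last of them at least 3.34-fold. Among ATF and CEBP factors 8 of 17 rose and 3 fell, or 5 and 7 with hybridisation-control scaling; CREM and CEBPG rose 2.62 and 2.14-fold. MYC fell 1.69-fold and its antagonist MXD1 rose 4.36-fold.

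Genes of NF-kB signalling and its feedback rose in 13 of 17 cases and fell in 1, or 10 and 2 with hybridisation-control scaling. NFKBIA, the inhibitor that holds NF-kB in the cytoplasm, read log2 10.97, 11.0004 and 10.96 with vehicle and 12.78, 12.71 and 12.61 with Aa, 3.30-fold higher (adjusted p = 8.1e-07). REL, a subunit, read 7.11, 7.48 and 7.12 and 9.31, 9.52 and 9.36 (4.47-fold), and IRF1, a factor of interferon and NF-kB responses, 6.53, 6.27 and 6.73 and 8.80, 8.42 and 8.61 (4.29-fold). The 6 arrays fell into separate groups for each of them, with gaps of over 1.5. NFKB1 did not pass (log2 change -0.12). Of 7 tested chemokine genes, many of which NF-kB can induce, 4 fell and 0 rose in limma, and 0 were higher at an unadjusted p under 0.05. CXCL8 read 12.78, 12.94 and 12.92 and 12.11, 12.22 and 11.51 (1.91-fold lower), CCL2 fell 2.03-fold (adjusted p = 0.101 without the replicate block) and CXCL2 1.74-fold. The adhesion gene VCAM1 fell 4.61-fold. IL6, the inflammatory cytokine gene, rose 7.35-fold (log2 4.69, 4.69 and 6.10 to 7.49, 8.14 and 8.48) and LIF 1.84-fold, while the receptor gene LIFR (134 kb) fell 1.66-fold (adjusted p = 0.132 without the replicate block, 0.0545 without replicate 2 and 0.0797 without replicate 3).

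Interferon-stimulated genes, which restrict viruses, rose in 20 of 30 cases and fell in 4, with a median of 0.75 (log2); with hybridisation-control scaling the counts were 12 and 5. IFIT3 rose by 1.14 (log2; 9.51, 9.43 and 9.54 with vehicle, 10.72, 10.71 and 10.47 with Aa, adjusted p = 4.46e-05). MX1 lay near background with vehicle (2.51, 2.51 and 2.51) and low with Aa (4.66, 5.58 and 4.58), at least 1.92-fold higher. NLRC5, which activates antigen presentation genes, read 5.98, 5.73 and 4.98 and 7.80, 7.80 and 8.001 (4.94-fold higher). IFI44L was among the genes that fell, with 7.86, 8.65 and 7.13 and 6.57, 7.44 and 4.75 (3.10-fold, adjusted p = 0.00888); its groups overlapped, and each Aa sample was below its same-numbered control. Its call was lost without the replicate block (adjusted p = 0.155) and without replicate 3 (adjusted p = 0.107). The peptide transporter genes TAP1 and TAP2 rose 2.50 and 3.78-fold, while over the 18 antigen presentation genes 4 rose and 4 fell.

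The promoters of IFIT3 (chr10:89327747-89328046, plus strand) and IFI44L (chr1:78620198-78620497, plus strand) are given because 1 rose and the other fell while both hold the same motif. The interferon element was searched on both strands as GAAA, any 2 bases and GAAA again, and stands in capitals:
IFIT3: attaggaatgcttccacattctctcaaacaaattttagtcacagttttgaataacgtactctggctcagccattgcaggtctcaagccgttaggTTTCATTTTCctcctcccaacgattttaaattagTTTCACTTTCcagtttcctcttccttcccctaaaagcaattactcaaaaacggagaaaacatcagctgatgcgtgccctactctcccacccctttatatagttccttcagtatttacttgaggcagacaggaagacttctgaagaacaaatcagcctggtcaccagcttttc
IFI44L: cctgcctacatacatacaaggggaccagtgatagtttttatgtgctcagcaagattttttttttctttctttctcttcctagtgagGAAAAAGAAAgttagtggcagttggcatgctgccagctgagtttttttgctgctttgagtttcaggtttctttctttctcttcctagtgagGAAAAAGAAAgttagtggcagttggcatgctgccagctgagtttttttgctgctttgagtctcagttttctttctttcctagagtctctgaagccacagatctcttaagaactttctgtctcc
Each holds 2 matches. The element was in 18 of the 26 interferon-stimulated genes with a window (69.2%), against 3.65% of all promoters; it was in 13 of the 17 that rose and in 3 of the 4 that fell. Genes that changed at least 2-fold upward held it in 3.77% of promoters and those changed downward in 2.16%, near the 2.69% of all tested genes. The CCAAT box was in 38.2% of promoters of genes up at least 2-fold, 36.0% of those down and 37.4% of all tested. Among genes over 300 kb that fell at least 2-fold it was in 26.7%.

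Genes that answer oxidants rose. Of 25 NRF2 target and glutathione genes 18 rose and 3 fell, or 10 and 4 with hybridisation-control scaling. MAFG, a partner of NRF2, read log2 7.61, 7.91 and 7.42 with vehicle and 8.94, 9.08 and 8.57 with Aa (2.32-fold), and the heme oxygenase gene HMOX1 8.10, 8.14 and 8.49 and 9.27, 8.84 and 9.68 (2.02-fold, adjusted p = 7.91e-05). OSGIN1 rose at least 4.02-fold. Aa values were above control values throughout for these 3 genes. GCLC, GCLM and TXNRD1, of glutathione synthesis and thioredoxin reduction, changed by 1.08, 0.94 and 1.06 (log2), NQO1 by 0.58, and the cystine transporter gene SLC7A11, at 0.23, did not pass. Among genes of nitroreduction and the aryl hydrocarbon receptor 6 of 14 rose and 4 fell, or 4 and 7 with that scaling. The cytochrome gene CYP1B1 rose 3.53-fold (log2 9.11, 9.64 and 9.12 to 11.01, 11.54 and 10.79), AHRR, the repressor of the receptor, rose at least 2.45-fold from background, and TIPARP, another feedback gene, fell 3.37-fold (log2 12.14, 12.42 and 11.99 to 10.35, 10.71 and 10.22).

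Genes of lipid and sugar metabolism fell more often than they rose. Of 20 genes of cholesterol synthesis and uptake 15 fell and 1 rose, with a median of -0.55 (log2) and none over 100 kb. HMGCS1, which starts the pathway, read log2 11.67, 11.75 and 11.73 with vehicle and 10.00, 10.00 and 10.24 with Aa, 3.11-fold lower (adjusted p = 3.8e-06). The sterol sensor gene INSIG1 read 12.13, 12.10 and 11.90 and 10.68, 10.98 and 10.51 (2.50-fold), and the sterol reductase gene TM7SF2 8.66, 7.95 and 8.29 and 6.53, 6.27 and 6.05 (4.04-fold). Each of the 3 was lower in all Aa samples than in any control. SREBF2, the factor that drives the pathway, did not pass (log2 change -0.12). Fatty acid synthesis genes fell in 6 and rose in 3 of 13 cases, with ELOVL6 5.16-fold lower and ACACB 3.65-fold higher. Of 21 fatty acid oxidation genes 9 fell and 3 rose, or 10 and 0 with hybridisation-control scaling; CPT1A, the entry step, fell 1.61-fold (adjusted p = 0.0648 without the replicate block). Among 31 genes of glycolysis and glycogen 14 fell and 4 rose (8 and 4 without the replicate block), and the abundant enzymes PKM, ENO1 and LDHA, with changes of 0.05, -0.07 and -0.10, did not pass.

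Few genes of oxidative phosphorylation passed with the deposited scaling. Of 69 genes of oxidative phosphorylation 12 fell, 3 rose and 0 changed 2-fold; NDUFS4 (123 kb) fell 1.96-fold. With hybridisation-control scaling 33 fell and 0 rose. Of 75 mitochondrial ribosomal protein genes 27 fell and 15 rose, or 38 and 3 with that scaling, with MRPS28 (112 kb) 2.32-fold lower and MRPL49 1.96-fold higher. SLC25A11, a carrier of the inner membrane with a span of 2.92 kb, read log2 10.15, 10.00 and 10.19 and 8.42, 8.19 and 8.52 (3.33-fold lower). Proteasome genes rose in 9 and fell in 6 of 41 cases, or 0 and 21 with that scaling, and none changed 2-fold. Heat shock and co-chaperone genes rose in 17 and fell in 10 of 40, or 7 and 14; DNAJB2 and DNAJB6 rose 3.22 and 3.03-fold. Genes of folding and stress in the endoplasmic reticulum rose in 4 and fell in 7 of 26, or 1 and 12, with ATF6 (198 kb) 2.09-fold lower. In amino acid metabolism the serine, one-carbon and asparagine list held 7 rises and 6 falls of 20, or 5 and 8 with that scaling, with CTH 1.93-fold higher and CBS 2.32-fold lower.

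Genes of epithelial contact fell more often than they rose. Of 29 tight and adherens junction genes 17 fell and 4 rose, with a median of -0.55; 7 of the 8 over 100 kb fell. The cadherin gene CDH1 changed by -1.68 (log2), with 6.92, 6.78 and 7.80 in control and 5.22, 5.17 and 6.05 in Aa samples, and CDH2 fell 3.30-fold. MAGI3 (295 kb), a junction scaffold gene, fell at least 7.52-fold. The envelope gene SCEL read 10.42, 10.999 and 9.93 and 4.66, 5.85 and 4.42 (44.4-fold lower, SE 0.82 on the log2 scale, adjusted p = 0.000401), and KRT20 fell at least 6.07-fold. The amino acid transporter gene SLC3A1, 1 of 2 proximal tubule markers measured here, read 9.02, 9.17 and 8.55 and 7.08, 7.19 and 6.59 (3.89-fold lower, adjusted p = 0.000359), and its partner in cystine uptake, SLC7A9, rose at least 5.81-fold from background. Of the 152 tested solute carriers outside mitochondria 51 rose and 52 fell, against 32.5% and 29.1% of all genes. With hybridisation-control scaling 31 rose and 71 fell. ABCA12 fell at least 15.2-fold, while ABCD4 and ABCB6 rose 3.50 and 2.64-fold.

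The injury marker of the proximal tubule, HAVCR1 (KIM-1), was lower and not higher with Aa. It read log2 11.58, 11.67 and 11.73 with vehicle and 10.41, 10.66 and 10.73 with Aa, 2.08-fold lower (SE 0.07, adjusted p = 3.84e-06), and the groups did not overlap. Among 18 kidney injury markers 6 fell, a share near the 29.1% of all genes that did, and 2 rose, HBEGF and B2M; with hybridisation-control scaling 12 fell and 1 rose. Of 27 collagen and laminin genes 10 fell and 5 rose, against 29.1% and 32.5% of all genes, or 18 and 2 with that scaling. COL4A1 fell 2.04-fold (log2 12.88, 12.46 and 12.46 to 11.84, 11.34 and 11.54). Of 14 integrin genes 6 fell and 3 rose, or 10 and 2, and ITGB3 and ITGA6 fell 2.99 and 2.897-fold. Of 29 TGF-beta and CCN genes 9 rose and 12 fell, or 4 and 15 with that scaling and 4 and 9 without the replicate block; ID2 and SMAD3 rose 2.39 and 2.24-fold, the latter with only 1 of 3 probe sets of that sign and an adjusted p of 0.0522 without replicate 2. Contractile and mesenchymal genes fell in 7 and rose in 3 of 15 cases, with a median of -0.25 (log2), and TAGLN, which rose 2.74-fold, had the most positive change of them. Secreted factors linked to low oxygen rose in 5 and fell in 3 of 9 cases, or 3 and 4 with hybridisation-control scaling: STC2 read 5.36, 5.43 and 5.47 and 8.89, 8.90 and 8.52 (10.2-fold higher, adjusted p = 3.82e-06), and ANGPTL4 and the vasodilator gene ADM rose 5.72 and 4.26-fold.

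Genes of the circadian clock changed in both directions. BMAL1, the activator, read log2 7.19, 7.66 and 7.14 with vehicle and 5.09, 4.98 and 5.00 with Aa, 4.94-fold lower (adjusted p = 0.000544), and its partner NPAS2 read 7.03, 6.69 and 6.52 and 5.17, 4.85 and 4.54 (3.72-fold lower). PER2, a repressor, read 5.77, 6.21 and 5.66 and 7.23, 7.72 and 7.20 (2.83-fold higher, adjusted p = 0.000249). The groups were separate in these 3 genes. PER3 and CRY2 changed by 1.41 and 1.12 (log2), CRY1 did not pass (-0.35), and over 18 clock genes 4 rose and 9 fell. The calls for the list were 4 up and 5 down without the replicate block, and 4 up and 11 down with hybridisation-control scaling. BMAL1 has a span of 110.6 kb, and of the 4 clock genes over 100 kb 3 fell and 0 rose. The part of span in the list was not tested.

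For 478 genes different probe sets of 1 gene passed in opposite directions, out of 2913 genes with at least 2 probe sets that passed; 56 did so with at least 2-fold in each direction. Probe sets of 1 gene can read different transcript ends or forms, and the gene-level values above rest on the brightest. CFLAR, which encodes an inhibitor of caspase-8, had 7 probe sets that rose and 4 that fell of 12 tested: the brightest pair, at log2 11.7 and 11.5 in control cells, had changes of -1.41 and -1.45, 6 of those that rose had changes of 0.58 to 0.86, and the other rose from log2 4.10 to 8.08 (3.98). ARRB1 (beta-arrestin 1) had 3 up and 4 down, from -3.02 to 1.203. LGALS8, SRSF1 and STRN had 3 up and 3 down each. CDK12, a kinase of transcription elongation, named here after its values were seen, had 5 probe sets that fell, by changes of -0.52 to -1.25, and 1 that rose from log2 4.06 to 8.42. At least 1 tested probe set had the other sign also for ABCB6, CBS, DDX52, ELOVL6, PRPF38B, TFDP2, TMEM37 and TRIM13. Over all probe sets of named genes 59.3% passed, close to the 61.5% of genes.

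The change at 24 h was set against that at 48 h by testing the difference of the 2 changes, which rests on separate controls at each time. For 4314 genes (38.6%) the changes differed, 1726 (15.4%) with a more positive and 2588 (23.1%) with a more negative change at 48 h; without the replicate block 2179 differed and without replicate 2 1318. Of the 2337 genes changed at least 2-fold at 24 h, 542 had a larger change at 48 h by this test and 347 a smaller one. Among genes over 300 kb the median change was -2.02 at 24 h and -2.62 at 48 h, and the change was more negative at 48 h for 116 and more positive for 12. Mitotic genes went the other way, with a more positive change at 48 h in 19 of 37 and a more negative one in 0: CENPE changed by -1.52 at 24 h and -0.81 at 48 h. Histone genes had a more positive change in 12 of 16, and interferon-stimulated genes a more negative one in 15 of 30.

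**Figure D4:**
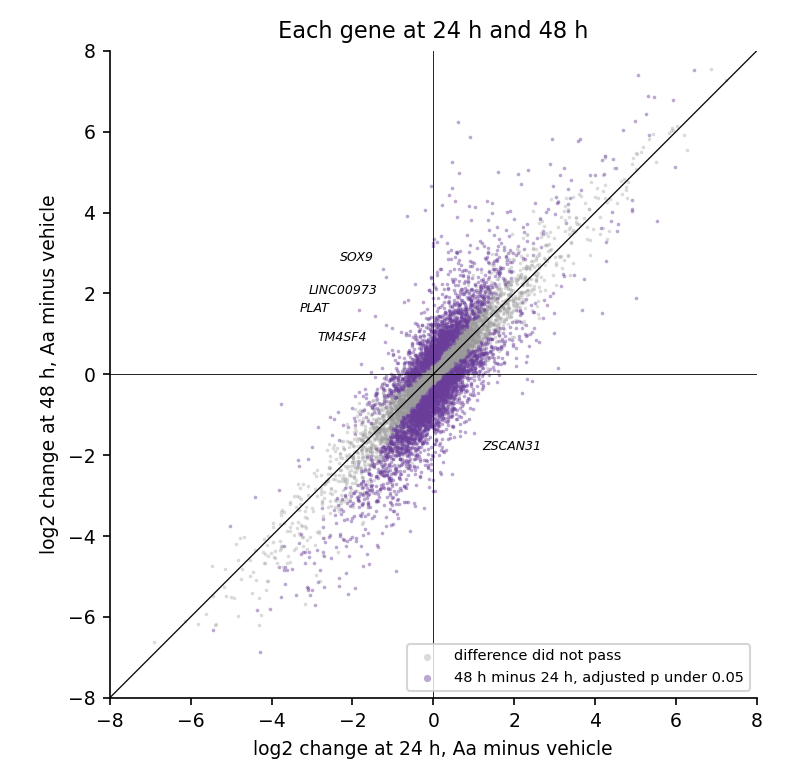
Log2 change (Aa minus vehicle) of each of 11184 genes at 24 h (horizontal) and 48 h (vertical); violet points are the 4314 genes whose changes differed between the times and the line marks equal changes. Genes that passed in opposite directions and differed most are labelled, among them SOX9 (-1.25 and 2.60) and PLAT (-1.84 and 1.59).

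Several changes passed at 24 h and not at 48 h, and the difference itself passed. AHRR was over log2 4 only with Aa at 24 h (mean 5.29); its means were 2.22 with vehicle at 24 h and 2.20 with vehicle and 2.35 with Aa at 48 h, so the difference (adjusted p = 0.000298) has no exact size. HMOX1 changed by 1.02 at 24 h and -0.13 at 48 h (adjusted p of the difference = 0.00136) and RAB33B, a Golgi GTPase gene, by 1.60 and 0.07 (adjusted p = 0.00024). The zinc exporter gene SLC30A4 changed by 1.498 and 0.11, PER2 by 1.499 and 0.34, and NLRC5 by 2.31 and 0.46. EGR1, lower at 24 h, did not pass at 48 h (-1.79 and 0.25, adjusted p of the difference = 0.0023). Other responses were larger later. HBEGF changed by 2.92 and then 5.83, ADM by 2.09 and 4.95, and the linker histone gene H1-2 by 0.93 and 3.82. Among falls that were larger later, INHBE, a stress-induced hormone subunit gene, changed by -0.23 and -3.30, TMEM37 by -1.59 and -4.69, CYS1, a cilium gene, by -0.99 and -3.71, GPC6 (1191 kb) by -1.36 and -4.28, BABAM2 by -2.33 and -5.02, and the kinase gene FRK by -0.87 and -3.54. The 24 h calls of INHBE, CYS1 and GPC6 were lost with 1 or more replicates left out (GPC6 without replicate 1, adjusted p = 0.0923; CYS1 without replicate 2, 0.0746, or 3, 0.127; INHBE without replicate 1, 0.201, 2, 0.112, or 3, 0.0711), and those of INHBE and CYS1 without the replicate block too (adjusted p = 0.734 and 0.133). The reference genes ACTB and GAPDH did not pass at 24 h. The change was -0.09 for ACTB (adjusted p = 0.317) and for GAPDH 0.03 (adjusted p = 0.711). The sign of GAPDH turned with hybridisation-control scaling.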

How the data were processed

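Total RNA of each sample was labelled and hybridised to an Affymetrix array, per the labels. The values were deposited by the authors as log2 signal after GCRMA, which subtracts a sequence-based background, normalises arrays to each other and gives 1 value per probe set, per the submitters' processing notes; the scaling hides any change in total RNA, and low values have no order. No step before GCRMA was repeated, and the number of arrays is 1 of the limits on precision. Of 54675 probe sets, 41091 name 1 gene, 1801 several and 11721 none in GEO's platform annotation, and 62 are controls; 41037 matched a RefSeq gene. The brightest probe set over the 12 arrays stood for a gene, and genes over log2 4 on at least 3 arrays were tested.

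limma 3.58.1 (R 4.3.3) fitted 4 group means and the replicate number as a block over the 12 arrays, with 6 residual degrees of freedom, and p-values were adjusted (Benjamini-Hochberg) over 11184 genes. Adjusted p-values in the text come from this fit unless the sentence names another setting. Calls of single probe sets come from fits of the same form, adjusted over those probe sets. The numbers pair the samples: deviations from group means correlated at 0.279 to 0.577 for 18 same-numbered pairs and at -0.372 to -0.0286 for 36 others. Deviations were taken from each group's own mean, so positive values for same-numbered pairs push the others negative. The negative values are therefore no separate check. The pairing comes from the labels' numbers and the positive values, and the labels do not say what the samples share. Nothing in the labels says that replicates came from separate cultures beyond the word biological, so p-values measure the spread between these samples. Named genes were, by rule, the largest measured changes, genes passing log2 4 in 1 group only, up to 3 genes per list, the largest differences between times, the longest genes, the genes with the most opposed probe sets and ACTB, GAPDH, CDKN1A, MDM2 and HAVCR1; other list members were named with their values seen. Members and lists were chosen with earlier results of these data known. 1 gene list is not reported here. Alternatives covered the block, the arrays fitted, the filter, the scaling, the choice of probe set, the variance prior and each replicate left out. Promoters and gene spans are RefSeq's (GRCh38.p14), and the fit was tested on simulated data. The simulated data had few changed genes and no scaling step. That test therefore does not cover data in which most genes pass, nor the dependence of the calls on scaling.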

Additional observations from a re-analysis of the deposited data

Results flagged for a closer look

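Groups of 3 samples are too small for an outlier test, so none was run. The change with Aa differed between 48 h and 24 h for 4314 genes in limma's test of the difference (adjusted p under 0.05). For 14 genes changed at least 2-fold at 24 h the change passed in the opposite direction at 48 h, and for each of them the difference itself passed. Passing in opposite directions in the same fit largely sets that result, so it is no separate support.

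Lower at 24 h and higher at 48 h were 10 genes. The difference (48 h change minus 24 h change, log2) was 3.86 for the kidney developmental factor SOX9, 3.58 for the noncoding LINC00973, 3.44 for the plasminogen activator gene PLAT and 2.87 for TM4SF4. It was 2.38 for the neurofilament gene NEFM, 2.17 for the replication gene GINS4 and 2.00 for the sulfate transporter gene SLC26A2. It was 1.65 for the kinase anchor gene AKAP12, 1.62 for the p53 target TP53I3 and 1.51 for the salt-inducible kinase gene SIK1. The other 4 were higher at 24 h and lower at 48 h: ZSCAN31 (-2.47), the F-box gene FBXL20 (-1.74), PCNX1 (-1.57) and UGDH (-1.52), which makes UDP-glucuronate. PLAT read log2 6.40, 6.17 and 8.27 in control samples at 24 h and 4.56, 4.73 and 6.03 with Aa, so replicate 3 was high in both groups, and the 24 h call was lost without the replicate block (adjusted p = 0.0747), as was that of LINC00973 (adjusted p = 0.108).

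Outside the gene-level analysis, 1761 of 3213 tested probe sets that name no gene or several passed at 24 h, 1042 higher and 719 lower with Aa. That is 54.8%, below the 61.5% of genes, and 841 changed at least 2-fold.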

How the results depend on the processing

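The count of changed genes stayed between 5376 and 6390 when replicates were left out and was 5492 with no replicate block, so the pairing moved it by less than 1.5 times. The pairing did move the difference between times: 2179 genes with no replicate block, and 1318 to 3949 with replicates left out (2562 without replicate 1 and 1318 without replicate 2), against 4314; the cause was not tested. Scaling to the hybridisation controls gave 1980 genes higher and 4751 lower, of which 830 were higher and 1705 lower at least 2-fold. The mean of all probe sets gave 743 lower at least 2-fold. Opposite probe sets numbered 56 with 2-fold changes in each direction. The median change of genes over 300 kb was -2.24 in the middle and -1.45 in the highest of 3 classes of control level.

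Of 262 named genes 233 kept direction and side of the threshold in all 19 alternatives, and 12 lost the call with no replicate block. Signs turned for 5 genes. With the mean of probe sets CFLAR was 0.30, SRSF1 0.057 and STRN 0.36. With hybridisation-control scaling GAPDH was -0.25 and MDM2 -0.067, and GAPDH was -0.025 to 0.070 with replicates left out. Of 2812 list counts 252 moved by over 1.5 times, 67 of them with hybridisation-control scaling. With 3 arrays per group, and values near background set by GCRMA, small changes and low levels are the least certain.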

Other observations

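The balance of calls differed with the control level. Among 3609 genes between log2 8 and 10 in control cells the calls were nearly balanced, 1268 up and 1202 down. Of 2209 genes between log2 10 and 12, 521 rose and 831 fell. Of 819 genes over log2 12, 95 rose and 231 fell, with 1 up and 29 down at least 2-fold. Genes under log2 4 in control cells are not set beside these, because such a gene enters the test through its signal on other arrays. The control level that sorts the genes is also 1 side of the change. Part of the tilt toward falls at high levels can come from that sorting, so these counts are a description.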
